A study of Bos taurus with 10 samples.

Results

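The comparison set liver against subcutaneous adipose tissue of cattle (Bos taurus) at peak lactation, the pair of tissues that lay farthest apart in the study. It used 4 of the 10 deposited microarrays, 2 of liver and 2 of subcutaneous adipose tissue, chosen by their titles. Each tissue was 1 RNA sample hybridised on a pair of cDNA arrays together with a reference standard made from a mixture of tissues, with the dyes Cy3 and Cy5 exchanged between the pair. The other arrays held mammary gland and mesenteric and omental adipose tissue, each also on a dye-swapped pair. The labels name no breed, age, genotype or treatment and do not say how many cows gave RNA, whether it was pooled, or whether both tissues came from 1 animal. A pair of dye-swapped arrays is 1 sample, so no spread between animals could be computed, and differences carry no p-value.

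Liver makes most plasma proteins, oxidises fatty acids, makes glucose and urea, and clears bile acids and foreign compounds. Adipose tissue stores triglyceride in large fat cells held in a collagen network, with blood vessels and resident immune cells, macrophages foremost among them. Around peak lactation a cow draws on its fat stores to feed the mammary gland, and the liver takes up the fatty acids that adipose tissue releases. In a tissue homogenate, a larger share of a cell type and more RNA of a gene per cell cannot be told apart, and this holds for every difference given here.

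A level is the log2 ratio of tissue over reference, with each array centred on its median, and a difference is the liver level minus the subcutaneous level on arrays of the same dye orientation, averaged over both orientations. The figure after ± is how far each orientation lies from that mean. It measures the slides and dyes, not animals. A gene was counted as higher in a tissue where the mean difference reached 2-fold (1 log2 unit) with the same sign in both orientations. Levels are comparable between tissues for 1 gene, not between genes. Between 16164 and 16245 of 16416 spots had a value on these 4 arrays, and duplicate spots correlated at 0.832 to 0.915 on the 10 arrays. The sign of the deposited ratio is not stated. Turning the arrays with the tissue in Cy3 treats it as Cy5 over Cy3, which is likely rather than certain, and with the opposite sign every difference below would change direction. Gene names rest on a rejoined print layout that was found on the arrays of the other 3 tissues. Differences of separate clones of a gene then correlated at 0.628 over 1313 clone pairs in the present comparison (0.008 with identifiers at face value), and 133 of the 143 pairs in which both clones passed 2-fold had the same direction. A name that rests on a single element may still be wrong.

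The labels were set against defining markers. Of 10 hepatocyte markers 5 were measured, and TF, SLC10A1, GAMT and ASS1 were higher in liver, whereas APOA1 was higher in subcutaneous adipose tissue. Of 9 adipocyte markers only LIPE and CAV1 were measured. CAV1, the main protein of caveolae, was higher in subcutaneous adipose tissue, and LIPE, the hormone-sensitive lipase, did not pass the rule. ADIPOQ, LEP, PLIN1, FABP4, LPL, CIDEC and PPARG were not among the genes compared, so the fat cell content of the subcutaneous sample could not be checked on them. Over the 19 measured genes of a wider adipocyte and lipid droplet list, the median level was -0.12 in the subcutaneous sample and -0.25 in liver. It was higher in the mesenteric (0.27) and omental (0.35) samples.

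In total 4347 genes were compared. Of these, 346 (7.96%) were higher in liver and 420 (9.66%) in subcutaneous adipose tissue, 17.6% together. With centring, the counts of the gene lists below are to be read against these shares. The levels of the 2 liver arrays lay apart from those of the 2 subcutaneous arrays in 335 (7.71%) and 413 (9.5%) of the compared genes. The median difference over all genes was -0.07, and the quartiles were -0.44 and 0.335. The median distance of an orientation from the mean was 0.13, and in 41 genes it reached 1. Past 3 log2 units (8-fold) lay 42 genes in each direction, and past 5 units 12 genes on the liver side and 3 on the subcutaneous side. Without centring the arrays, every difference shifted by -0.68, the median over all genes became -0.74, and the split was 163 genes higher in liver to 1377 in subcutaneous adipose tissue. All directions below are therefore relative to the median gene. Any positive difference below 0.68, of a gene or of a list median, turns negative without centring, and a gene on the liver side needs 1.68 to pass the rule there.

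**Figure D1:**
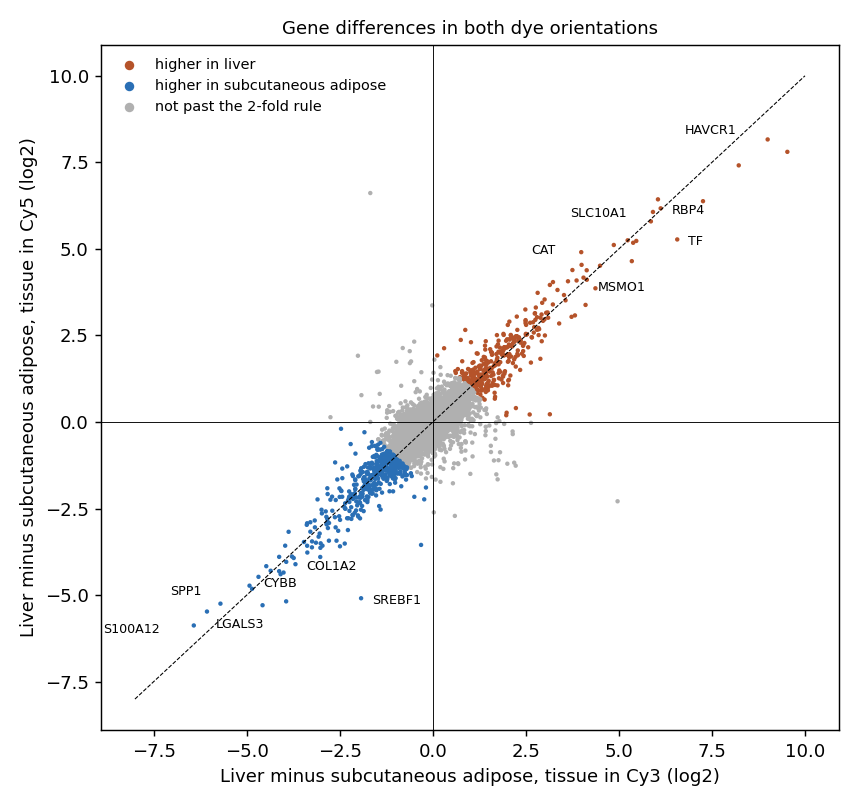
Liver minus subcutaneous adipose difference of each of the 4347 genes (log2), with the tissues in Cy3 on the horizontal axis and in Cy5 on the vertical axis. Genes higher in liver (346) and in subcutaneous adipose tissue (420) are coloured, and the dashed line marks equal values. The orientations correlated at 0.859 across genes, and SREBF1 is a gene past the rule that lies far from the line.

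The genes highest in liver included secreted plasma proteins and transporters. SERPINA3-3, of a family of serine protease inhibitors of plasma, had levels of 2.94 and 7.78 on the Cy3 and Cy5 liver arrays and of -6.58 and -0.03 on the subcutaneous arrays. Its difference of 8.67 ± 0.86 was the largest of all, but its close relatives may bind to the same element. RBP4, which carries retinol in plasma, stood at 2.59 and 6.50 in liver against -3.54 and 0.33, a difference of 6.15 ± 0.03 (70.9-fold). All 4 arrays of both genes lay apart by tissue. TF (transferrin), the iron carrier of plasma, stood at 2.43 and 4.91 against -4.14 and -0.36, a difference of 5.92 ± 0.65. SLC10A1, the sodium-dependent transporter that takes bile acids up into hepatocytes, stood at 2.98 and 6.10 against -2.94 and 0.03, a difference of 5.99 ± 0.08 (63.6-fold). In both genes the lowest liver array exceeded the highest subcutaneous array by more than 2 log2 units.

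Of the 4 measured hepatocyte plasma protein genes 3 were higher in liver and 1 in subcutaneous adipose tissue, with a median of 4.52. SERPING1, the C1 inhibitor, differed by 3.12 ± 0.28. APOA1, the main protein of high-density lipoprotein, was the exception at -1.01 ± 0.15, with levels of 0.48 and 1.22 in liver and 1.65 and 2.08 in subcutaneous adipose tissue. It lay just past the rule, and on the Cy5 arrays alone it stood at -0.86. Of 6 complement genes 5 were higher in liver, and the list median was 2.82. They were C1R (3.45 ± 0.37) and C1S (2.78 ± 0.06), the proteases of the first component, whose arrays overlapped between tissues for C1S (3.18 and 6.29 against 0.34 and 3.57), C4A (2.85 ± 0.10), C2 (2.55 ± 0.11) and CD59 (3.06 ± 0.04), which guards host cells against the final attack complex. CFD (complement factor D, also called adipsin), a product of fat cells and macrophages, stood at -0.49 ± 0.04, and passed toward subcutaneous adipose tissue without centring. Among carriers of retinol, iron, copper and selenium, 5 of 11 genes were higher in liver (median 0.79), or 4 with 4 others in subcutaneous adipose tissue without centring (median 0.11), with the selenium carrier SELENOP at 2.11 ± 0.18, whose arrays overlapped, and the zinc exporter SLC30A1 at 1.90 ± 0.14 beside RBP4 and TF.

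**Figure D2:**
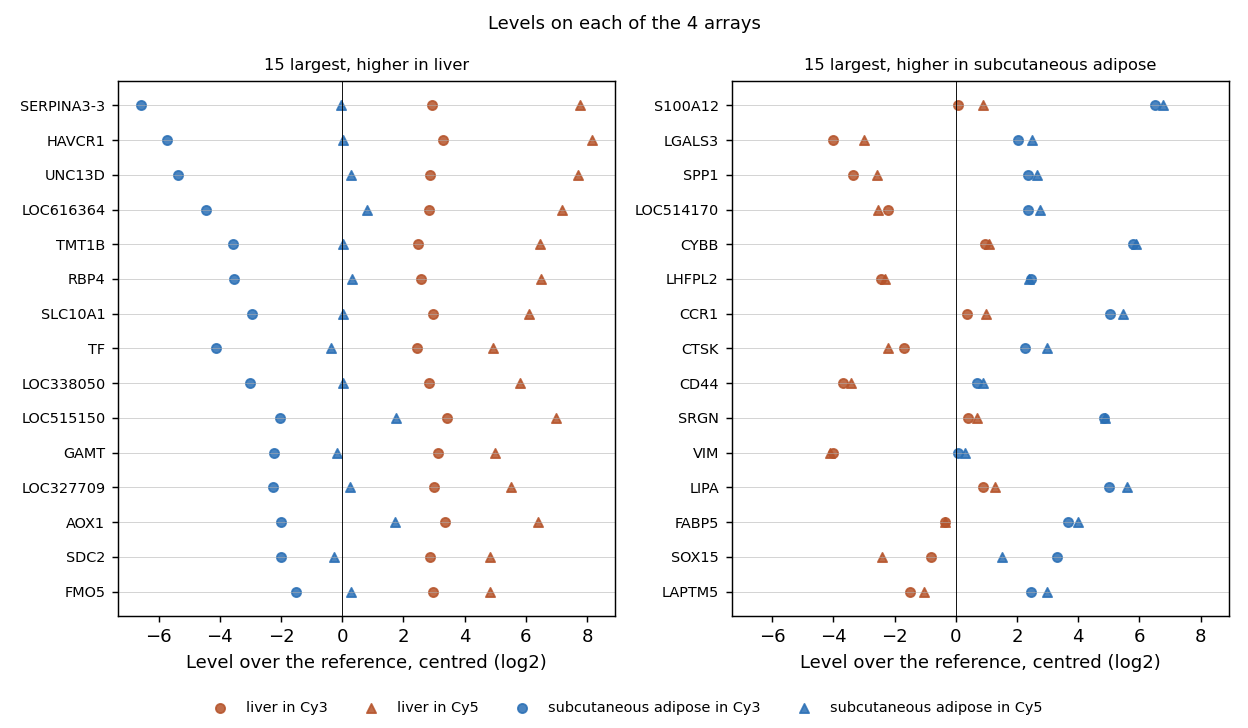
Levels of the 15 genes with the largest difference in each direction on each of the 4 arrays (log2 over the reference, centred). Circles are arrays with the tissue in Cy3 and triangles in Cy5, and in each gene shown both arrays of the higher tissue lie to the right of both arrays of the other.

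Most measured genes that burn fatty acids were higher in liver. Fatty acid oxidation and ketogenesis had 13 measured genes, of which 10 were higher in liver and none in subcutaneous adipose tissue, against a share of 7.96% over all genes, and the median was 1.88. CPT1A, which admits long-chain fatty acids to mitochondria, had levels of 1.63 and 1.73 in liver and -1.02 and -0.72 in subcutaneous adipose tissue, a difference of 2.56 ± 0.10 (5.88-fold, 2 elements at 2.55 and 2.56). SLC25A20, which carries acylcarnitine across the inner membrane, stood at 2.36 ± 0.12. The dehydrogenases followed the same direction, with ACADS (short chains) at 2.87 ± 0.38 and ACADVL (very long chains) at 2.08 ± 0.08. ECI1, an isomerase for unsaturated chains, stood at 2.94 ± 0.02 and ETFDH, which passes the electrons to the respiratory chain, at 2.65 ± 0.39. The acyl-CoA synthetase gene ACSL1 (0.43 ± 0.05) did not pass. CPT2, ECI2 and ETFA fell short of 2-fold without centring, which left 7 genes and a median of 1.20.

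In the peroxisome list, 9 of 12 genes were higher in liver and none in subcutaneous adipose tissue (median 1.30). Without centring 5 were, and the median was 0.63. CAT (catalase), which breaks down hydrogen peroxide, had levels of 2.05 and 5.63 in liver and -1.94 and 1.09 in subcutaneous adipose tissue, a difference of 4.27 ± 0.27 (19.3-fold). PHYH, which starts the breakdown of the chlorophyll product phytanic acid, stood at 3.64 ± 0.41, and the sterol carrier gene SCP2 at 2.73 ± 0.07. The peroxin genes, which import enzymes and build the organelle, lay lower: PEX5 at 1.19 ± 0.14 and PEX2 at 1.15 ± 0.06 passed, though not without centring, and PEX19 (0.66 ± 0.12) and PEX16 (0.05 ± 0.03) did not.

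Cholesterol synthesis had 4 of 5 genes higher in liver (median 2.72). MSMO1, which removes methyl groups from lanosterol derivatives, stood at 1.85 and 2.88 in liver against -2.29 and -1.23, a difference of 4.12 ± 0.01 (17.4-fold). ACAT2 (2.77 ± 0.09), EBP (2.72 ± 0.23) and LSS (2.26 ± 0.07) lay close together, and IDI1 (0.81 ± 0.37) did not pass. For bile acid, xenobiotic and retinoid metabolism, 11 of 17 genes were higher in liver and none in subcutaneous adipose tissue (median 1.45). Without centring 8 were higher in liver and 2 in subcutaneous adipose tissue (median 0.77). AOX1 (aldehyde oxidase) stood at 5.0 ± 0.35 and FMO5, a flavin monooxygenase, at 4.50 ± 0.01 over 2 elements (3.99 and 5.02). The transporters ABCC2, which exports bilirubin conjugates into bile, SLCO2B1, an importer of organic anions, and ABCG2, an efflux pump, stood at 4.45 ± 0.46, 3.31 ± 0.09 and 2.51 ± 0.01. The sulfotransferase SULT1E1, which inactivates oestrogens, differed by 3.58 ± 0.23. ABCC3 (-0.14 ± 0.12), RDH10 (-0.40 ± 0.13) and MGST2 (-0.51 ± 0.02) were the 3 members with a negative difference.

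Amino acid and sugar metabolism was divided. Of 18 genes of the urea cycle and amino acid metabolism, 6 were higher in liver and none in subcutaneous adipose tissue, and the median was 0.45 (4 in liver, 2 in subcutaneous adipose tissue and -0.22 without centring). GAMT, which makes creatine, led them with levels of 3.14 and 5.0 against -2.24 and -0.18, a difference of 5.28 ± 0.10 (38.9-fold). AHCY, which clears S-adenosylhomocysteine, stood at 2.68 ± 0.17, GSTZ1, an enzyme of tyrosine breakdown, at 2.30 ± 0.10 and ASS1, which makes argininosuccinate in the urea cycle, at 2.18 ± 0.11. ASL, which follows ASS1 in that cycle, stood at 0.11 ± 0.51 and did not pass.

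The list of gluconeogenesis and lactate had 9 genes, with 4 higher in liver and 2 in subcutaneous adipose tissue, and the median was 0.45 (-0.23 without centring). SORD, which makes fructose from sorbitol, stood at 3.55 ± 0.41, TKFC, which phosphorylates glyceraldehyde and dihydroxyacetone, at 2.71 ± 0.21, and the aminotransferases GOT2 and GOT1 at 2.37 ± 0.11 and 1.61 ± 0.12. PC (pyruvate carboxylase), the entry step of gluconeogenesis from lactate, stood at 0.45 ± 0.29 and did not pass. LDHA, a lactate dehydrogenase gene, was higher in subcutaneous adipose tissue at -2.85 ± 0.06, with levels of -2.89 and -3.11 in liver and -0.11 and -0.20 there. The glycolysis list had 5 of 15 genes higher in subcutaneous adipose tissue, none in liver and a median of -0.67 (13 of 15 and -1.34 without centring). Its leaders were HK3, a hexokinase known from white blood cells, at -3.01 ± 0.16, ALDOA at -2.04 ± 0.22 and HK1 at -1.63 ± 0.29, whereas GAPDH stood at 0.06 ± 0.10. Of 7 glycogen genes 1 passed, PPP1R3C, which directs a phosphatase to glycogen, at 2.01 ± 0.05, and the list median was -0.09 (1 gene in each direction and -0.76 without centring). PYGL, the liver form of glycogen phosphorylase, stood at 0.94 ± 0.32.

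Most respiratory chain genes differed by less than 2-fold. Of its 43 measured subunits 1 was higher in liver (UQCRQ, 1.12 ± 0.07), 1 in subcutaneous adipose tissue (COX5A, -1.13 ± 0.13) and 41 did not pass. The median was 0.06, and -0.61 without centring, where none passed toward liver and 4 toward subcutaneous adipose tissue. The citric acid cycle list had 3 of 15 genes higher in liver and 1 in subcutaneous adipose tissue, with a median of 0.33 (none in liver, 2 in subcutaneous adipose tissue and -0.35 without centring). With centring the shares were 20% and 6.67%, against 7.96% and 9.66% over all genes. FH (fumarase) stood at 1.63 ± 0.26, PDK4, which holds back pyruvate oxidation, at 1.39 ± 0.05 and SUCLG2 at 1.33 ± 0.04. CS (citrate synthase), the first enzyme of the cycle, had levels of -2.37 and -1.75 in liver and 0.61 and 0.78 in subcutaneous adipose tissue, a difference of -2.76 ± 0.23 on 1 element.

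Genes known from macrophages and other phagocytes stood among the highest in subcutaneous adipose tissue. Of the 30 measured genes of the myeloid and phagocyte list, 22 were higher in subcutaneous adipose tissue, 3 in liver and 5 did not pass, against 9.66% higher in subcutaneous adipose tissue over all genes. The median was -2.57. The arrays of all 22 genes lay apart by tissue, as did those of 413 of the 420 genes past the rule on that side. S100A12, a calcium-binding protein of granulocytes and monocytes, had levels of 0.08 and 0.89 in liver and 6.50 and 6.76 in subcutaneous adipose tissue, a difference of -6.15 ± 0.27 (70.8-fold higher in subcutaneous adipose tissue). CYBB, the catalytic subunit of the phagocyte oxidase, stood at 0.94 and 1.07 against 5.80 and 5.89, a difference of -4.83 ± 0.02. CCR1, a chemokine receptor of monocytes and neutrophils, stood at 0.37 and 0.99 against 5.05 and 5.46, a difference of -4.58 ± 0.10. In these 3 genes the liver levels lay above the array median by 0.08 to 1.07, and the subcutaneous levels by 5.05 to 6.76.

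LGALS3 (galectin 3) is a sugar-binding protein abundant in macrophages. It was instead below the array median in liver, at -4.02 and -2.99, and above it in subcutaneous adipose tissue, at 2.04 and 2.48. It differed by -5.77 ± 0.30 (54.5-fold, 2 elements at -6.92 and -4.61). SPP1 (osteopontin), a secreted phosphoprotein, differed by -5.47 ± 0.23, though its 2 elements were far apart at -7.29 and -3.66. VSIG4, a complement receptor of resident macrophages, was above the array median in both tissues. It stood at 1.58 and 1.64 in liver and 5.37 and 5.53 in subcutaneous adipose tissue, a difference of -3.83 ± 0.05. CD68, a macrophage lysosome glycoprotein, differed by -3.04 ± 0.55, ITGB2, the beta chain of leukocyte integrins, by -3.27 ± 0.30, and CCL2, a chemokine that attracts monocytes, by -2.90 ± 0.05. The scavenger receptor gene MSR1 (-1.88 ± 0.20) and AIF1 (-1.41 ± 0.20) passed as well.

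Some macrophage genes did not follow. The 3 chains of complement component C1q, which macrophages make, were all higher in liver: C1QC at 2.00 ± 0.25, C1QB at 1.71 ± 0.03 and C1QA at 1.15 ± 0.25. The arrays overlapped between tissues for C1QB, at 2.31 and 4.02 against 0.57 and 2.33, and for C1QA, at 2.16 and 4.07 against 1.27 and 2.67. C1QA stood at 0.47 without centring and fell short of the rule there. CD163, a haemoglobin scavenger receptor of macrophages, stood at -0.60 ± 0.14, CD14, a coreceptor for bacterial lipopolysaccharide, at 0.39 ± 0.02 and FCGR3A, an Fc receptor, at 0.34 ± 0.03, none past the rule. Liver holds its own resident macrophages, the Kupffer cells. The 27 list members other than C1q had 22 genes higher in subcutaneous adipose tissue and a median of -2.89, a split by gene that was made after the values were seen.

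The lysosome list lay on the same side as the phagocyte genes. Of its 44 measured genes 24 were higher in subcutaneous adipose tissue, none in liver and 20 did not pass (median -1.33). LIPA, the acid lipase that frees cholesterol and fatty acids in lysosomes, had levels of 0.87 and 1.28 in liver and 5.0 and 5.58 in subcutaneous adipose tissue, a difference of -4.22 ± 0.09 (18.6-fold). ARSB, an arylsulfatase, stood at -2.11 and -2.07 against 1.35 and 1.40, a difference of -3.46 ± 0.00. The arrays lay apart by tissue in both genes. Of 8 cathepsins in the lysosome and myeloid lists, which digest proteins in lysosomes, 7 were higher in subcutaneous adipose tissue, with CTSK at -4.56 ± 0.62, CTSH at -3.15 ± 0.23, CTSS at -2.89 ± 0.05 and CTSB at -2.33 ± 0.14. The subunits and accessory proteins of the proton pump that acidifies lysosomes had 9 of 11 genes past the rule, from ATP6AP2 at -2.40 ± 0.16 and ATP6V1E1 at -1.82 ± 0.02 to ATP6AP1 at -1.29 ± 0.09. ASAH1 (acid ceramidase, -2.42 ± 0.04), GM2A (-2.37 ± 0.36), CTSA (-2.20 ± 0.04) and NPC2 (-1.96 ± 0.19) handle lipids, glycans or cholesterol in the same compartment. The membrane proteins LAMP1 (-0.05 ± 0.08) and LAMP2 (0.79 ± 0.58) did not pass. Leaving out the members that also stand in the myeloid or T and NK cell lists left 39 genes, 19 of them higher in subcutaneous adipose tissue, with a median of -1.0. This alternative was added after the data were seen.

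Actin and its regulators, which give moving and phagocytosing cells their shape, were mostly on the subcutaneous side. Of 39 genes of the actin cytoskeleton list, 30 were higher in subcutaneous adipose tissue and none in liver, with a median of -1.51 (29 of 38 and -1.44 without LCP1, the one member that is also a myeloid marker). GSN (gelsolin), which severs actin filaments, had levels of -0.19 and 0.07 in liver and 3.06 and 3.68 in subcutaneous adipose tissue, a difference of -3.43 ± 0.19 (10.8-fold). MSN (moesin), which ties actin to the membrane, stood at -2.27 and -1.95 against 0.89 and 1.09, a difference of -3.10 ± 0.06. COTL1 differed by -3.11 ± 0.32, the monomer binder TMSB10 by -2.73 ± 0.15, and CFL1 (cofilin) by -1.85 ± 0.29. The Arp2/3 complex, which branches filaments, had 4 of 5 genes past the rule, with ACTR3 at -2.21 ± 0.30 and ARPC5 at -2.35 ± 0.00, and ARPC1A on the other side at 0.81 ± 0.04 without passing. The membrane-binding annexins ANXA5 (-3.09 ± 0.20), ANXA1 (-2.69 ± 0.06) and ANXA2 (-1.58 ± 0.05) and the S100 protein S100A11 (-3.46 ± 0.44) lay on the subcutaneous side as well. ACTN4 (-0.13 ± 0.11) and RAC1 (-0.47 ± 0.15) did not pass. These proteins are abundant in leukocytes and connective tissue cells, and the part of the cell makeup in this list was not tested.

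**Figure D3:**
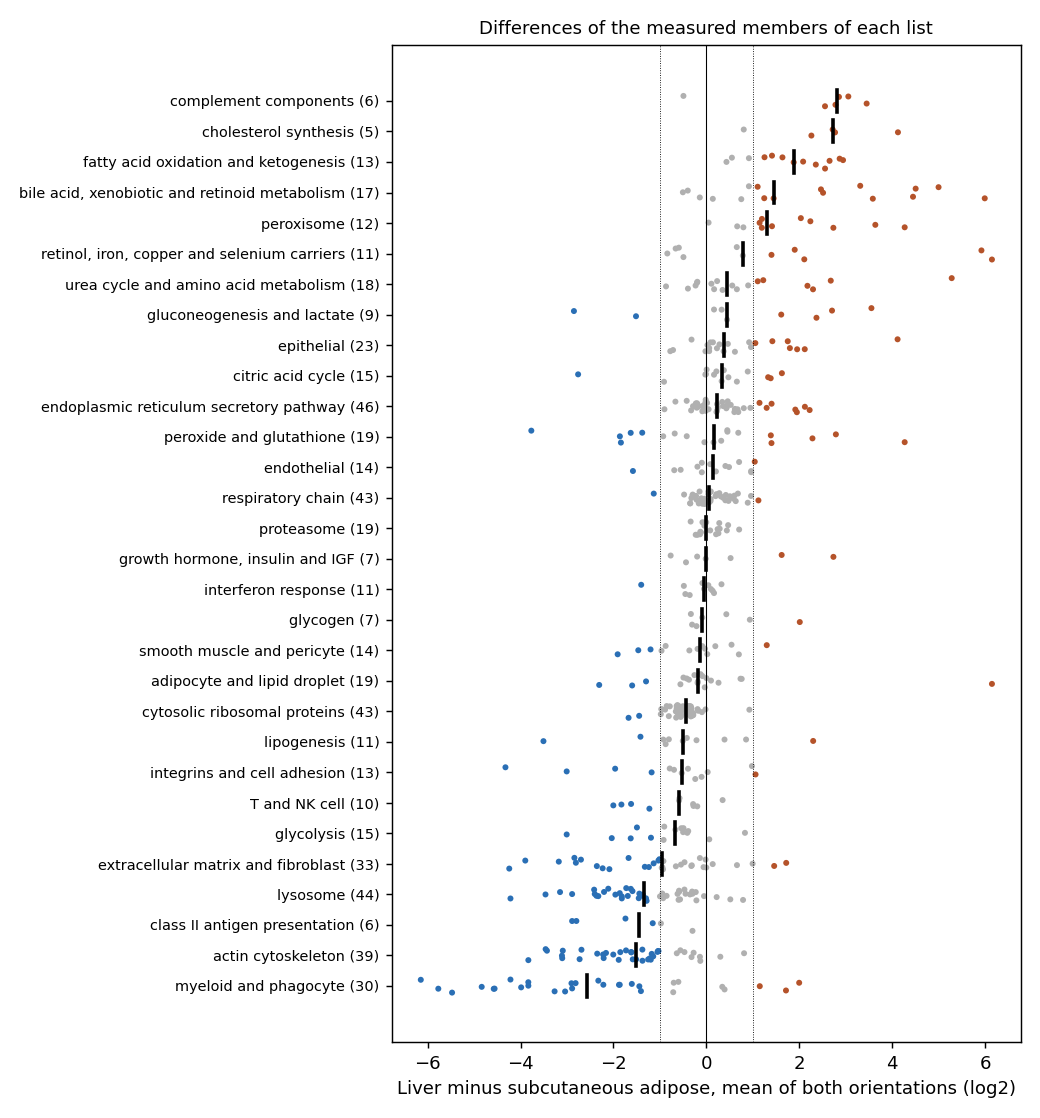
Liver minus subcutaneous adipose difference (log2) of each measured member of the larger gene lists, with the number measured in brackets. Bars are medians, dotted lines mark 2-fold, and colours mark members higher in liver, higher in subcutaneous adipose tissue or not past the rule. The list medians run from 2.82 (complement components) to -2.57 (myeloid and phagocyte).

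Other immune lists shifted less. Of 10 T and NK cell genes 4 were higher in subcutaneous adipose tissue (40%, against 9.66% over all genes), with a median of -0.58. CD3E, a chain of the T cell receptor complex, had levels of 1.07 and 1.94 in liver and 2.83 and 3.42 in subcutaneous adipose tissue, a difference of -1.62 ± 0.14. CD3D stood at -1.23 ± 0.48 and fell short on the Cy5 arrays alone. CORO1A (-1.83 ± 0.16) and RAC2 (-2.00 ± 0.25) are found in most leukocytes. CD8A (-0.20 ± 0.06), PRF1 (-0.28 ± 0.15) and CCL5 (0.35 ± 0.15) did not pass. In class II antigen presentation 4 of 6 genes were higher in subcutaneous adipose tissue (median -1.45): CTSS, IFI30, a lysosomal reductase, at -2.80 ± 0.06, CD74, the invariant chain, at -1.74 ± 0.23 and BOLA-DRB3 at -1.15 ± 0.14, whose element may also bind related class II genes. Leaving out CTSS, which also stands in the myeloid list, left 3 of 5 genes higher there, with a median of -1.15. The B and plasma cell list had 2 measured genes, SDC1 at 1.26 ± 0.04, which hepatocytes also carry, and IGHM, the heavy chain of immunoglobulin M, at -0.61 ± 0.26 (median 0.32, and -0.35 without centring). In the interferon response list 1 of 11 genes passed, the immunoproteasome subunit PSMB8 at -1.40 ± 0.01, with a median of -0.05 (4 genes and -0.72 without centring).

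Extracellular matrix genes were partly higher in subcutaneous adipose tissue. Of 33 matrix and fibroblast genes 15 were higher there, 2 in liver and 16 did not pass (median -0.95). VIM (vimentin), the intermediate filament of cells of connective tissue and blood, had levels of -4.0 and -4.10 in liver and 0.09 and 0.30 in subcutaneous adipose tissue, a difference of -4.24 ± 0.15 (18.9-fold). COL1A2, a chain of type I collagen, stood at -2.93 and -3.11 against 0.76 and 0.99, a difference of -3.90 ± 0.21. MMP2, which digests gelatin and basement membrane collagen, differed by -3.18 ± 0.21, COL3A1 by -2.84 ± 0.30, DCN (decorin) by -2.81 ± 0.17, COL6A1 by -2.70 ± 0.42 and SPARC by -2.23 ± 0.02. Of 8 collagen chains 5 passed. Those that did not were COL18A1 (0.14 ± 0.08), COL8A1 (-0.02 ± 0.04) and COL12A1 (-0.06 ± 0.07). Elastic fibre genes such as ELN (-0.47 ± 0.05), FBLN5 (-0.66 ± 0.21) and MFAP4 (-0.00 ± 0.28) did not pass either. FN1 (fibronectin), which hepatocytes secrete into plasma, was higher in liver at 1.46 ± 0.16 (2 elements at 1.45 and 1.47), as was FBLN2 at 1.72 ± 0.05, and FN1 fell short of 2-fold without centring.

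Among cell surface adhesion genes 4 of 13 were higher in subcutaneous adipose tissue and 1 in liver (median -0.53), or 8 and none without centring (median -1.21). With centring the shares were 30.8% and 7.69%, against 9.66% and 7.96% over all genes. CD44, the hyaluronan receptor, had levels of -3.67 and -3.42 in liver and 0.69 and 0.88 in subcutaneous adipose tissue, a difference of -4.32 ± 0.03 (20.0-fold). CD9 stood at -3.01 ± 0.42, ICAM1, a ligand of leukocyte integrins, at -1.96 ± 0.56 and ITGAV at -1.18 ± 0.00. ITGB1, the beta chain shared by many integrins, stood at -0.79 ± 0.46 and did not pass.

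Counts of fat cell genes are read against all genes, of which 9.66% passed toward subcutaneous adipose tissue and 7.96% toward liver. Of 19 measured adipocyte and lipid droplet genes 3 were higher in subcutaneous adipose tissue, 1 in liver and 15 did not pass, and the median was -0.18. Without centring 7 were higher in subcutaneous adipose tissue, and the median was -0.86. The 3 were CAV1, with levels of -2.64 and -3.08 in liver and -0.58 and -0.53 in subcutaneous adipose tissue (-2.31 ± 0.25), its partner CAVIN1 (-1.60 ± 0.15) and the droplet coat protein PLIN2 (-1.30 ± 0.14). None of them is confined to fat cells, and the one gene higher in liver was RBP4. The lipases of fat breakdown did not pass: PNPLA2 stood at 0.73 ± 0.01, LIPE at 0.26 ± 0.36 with overlapping arrays and MGLL at 0.00 ± 0.18. CEBPA (-0.19 ± 0.05), a transcription factor of both fat cells and hepatocytes, CIDEA (-0.42 ± 0.50) and the adiponectin receptors ADIPOR1 (-0.12 ± 0.15) and ADIPOR2 (-0.56 ± 0.07) did not pass either. LIPE lay at 2.18 in mesenteric and 1.04 in omental adipose tissue but at -0.34 in the subcutaneous sample (mean of its 2 arrays).

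Lipogenesis had 2 of 11 genes higher in subcutaneous adipose tissue and 1 in liver (median -0.51). These are 18.2% and 9.09%, against 9.66% and 7.96% over all genes. The counts were 7 and 1 without centring (median -1.18) and 4 and 2 on the Cy3 arrays alone. SREBF1, a transcription factor of lipid synthesis, differed by -3.51 ± 1.58, with levels of -0.73 and -0.37 in liver and an uneven 1.20 and 4.72 in subcutaneous adipose tissue. ACSS1, which activates acetate, stood at -1.42 ± 0.05, ACLY, which makes cytosolic acetyl-CoA, at -0.51 ± 0.19 and ME1 (malic enzyme) at -0.81 ± 0.19. MLXIPL, the carbohydrate-responsive factor ChREBP, was higher in liver at 2.30 ± 0.20. Of 2 fatty acid binding proteins FABP5 was higher in subcutaneous adipose tissue, with levels of -0.35 and -0.36 in liver and 3.65 and 3.99 there (-4.18 ± 0.17, 4 elements from -5.60 to -1.93), and DBI, which binds acyl-CoA, was higher in liver at 1.05 ± 0.10.

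Vessel and epithelial lists were read against the shares of 7.96% and 9.66% over all genes. Endothelial genes had 1 of 14 higher in each tissue, TEK at 1.04 ± 0.25 and PDPN, a marker of lymphatic vessels, at -1.58 ± 0.42, and the median was 0.14 (none in liver, 3 in subcutaneous adipose tissue and -0.53 without centring). Smooth muscle and pericyte genes had 3 of 14 higher in subcutaneous adipose tissue and 1 in liver (median -0.14). They were ACTG2 (-1.91 ± 0.05), MCAM (-1.47 ± 0.13) and ANPEP (-1.20 ± 0.21) against the myosin kinase gene MYLK (1.30 ± 0.04), and without centring the counts were 6 and none (median -0.81). Epithelial genes had 7 of 23 higher in liver and none in subcutaneous adipose tissue, and the median was 0.37 (5 in liver, 2 in subcutaneous adipose tissue and -0.30 without centring). SPINT1, an inhibitor of membrane proteases, led at 4.12 ± 0.25, followed by the tight junction genes OCLN (2.12 ± 0.39) and CLDN1 (1.80 ± 0.06). The keratins KRT18 (1.95 ± 0.10, 3 elements from 0.15 to 2.98) and KRT8 (1.75 ± 0.34) are the pair that hepatocytes make. With KRT19 (1.42 ± 0.19), a keratin of bile ducts, they were also the 3 measured genes of the mesothelial list, whose median was 1.75. CDH1 (E-cadherin, -0.72 ± 0.10) and EPCAM (-0.78 ± 0.44) did not pass.

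None of 3 skeletal muscle genes (median 0.53, and -0.14 without centring) and none of 3 neural and Schwann cell genes (median -0.28) passed. Of 4 milk protein and secretion genes 1 passed, MFGE8 at -2.18 ± 0.02, a protein of the milk fat globule that macrophages also make (median -0.06, and 0.02 on the Cy3 arrays alone). No erythroid gene was measured. None of the 3 liver transcription factor genes passed (median 0.58, and -0.09 without centring), which were TBX3 (0.91 ± 0.88), GATA6 (0.58 ± 0.00) and CEBPA. In the growth hormone, insulin and IGF list 2 of 7 genes were higher in liver (median -0.01), or 1 with 2 others in subcutaneous adipose tissue without centring (median -0.69). The 2 higher in liver with centring were IGFBP4 at 2.73 ± 0.01 over 3 elements (0.76 to 3.89) and IGFBP3, the main IGF carrier of plasma, at 1.62 ± 0.01. The latter fell short of 2-fold without centring.

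Lists of genes that every cell uses were set beside these. None of 19 proteasome genes passed (median -0.00, and -0.68 with 1 gene past the rule without centring). Cytosolic ribosomal protein genes had 2 of 43 past the rule, RPL39 (-1.67 ± 0.27) and RPL35A (-1.45 ± 0.24), but 42 of the 43 differences were negative and the median was -0.43, or -1.10 with 33 genes past the rule without centring. The secretory pathway of the endoplasmic reticulum had 7 of 46 genes higher in liver and none in subcutaneous adipose tissue, and the median was 0.22 (4 in each tissue and -0.45 without centring). With centring the share higher in liver was 15.2%, against 7.96% over all genes. The 7 genes included LMAN1 (2.12 ± 0.15) and MCFD2 (1.95 ± 0.23), which together carry clotting factors out of the endoplasmic reticulum, the related cargo receptor LMAN2 (2.22 ± 0.32) and the disulfide isomerases PDIA4 (1.92 ± 0.02) and P4HB (1.40 ± 0.04). Of the translocation genes, SEC62 was higher in liver at 1.14 ± 0.03, and SEC61A1 (-0.19 ± 0.04) and the signal recognition particle genes SRP54 (-0.01 ± 0.01), SRP19 (-0.67 ± 0.01) and SRP14 (-0.90 ± 0.06) did not pass.

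Peroxide and glutathione genes divided by gene, with 5 of 19 higher in each tissue and a median of 0.16 (3 in liver, 8 in subcutaneous adipose tissue and -0.52 without centring, and -0.06 after quantile normalisation). Beside CAT, the superoxide dismutase SOD1 stood at 1.78 and 2.18 in liver against -0.92 and -0.70, a difference of 2.79 ± 0.09, and the mitochondrial peroxiredoxin PRDX3 at 2.28 ± 0.17. The cytosolic peroxiredoxin PRDX1 had levels of -2.99 and -2.62 in liver and 0.98 and 0.95 in subcutaneous adipose tissue, a difference of -3.77 ± 0.20 (13.6-fold). TXNRD1, which reduces thioredoxin, stood at -1.86 ± 0.01, GPX4, which repairs lipid peroxides, at -1.84 ± 0.13 and PRDX2 at -1.63 ± 0.13.

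The 25 largest differences toward liver also held genes outside these lists. HAVCR1 (8.58 ± 0.42) and UNC13D (7.82 ± 0.40) are known from kidney injury and cytotoxic granule release rather than from liver, and each rests on 1 element. TMT1B, a thiol methyltransferase, stood at 6.24 ± 0.19, SDC2, a heparan sulfate proteoglycan, at 4.99 ± 0.12, DPP4, a membrane peptidase, at 4.26 ± 0.12, ALAD, an enzyme of haem synthesis, at 4.11 ± 0.06, HSD17B10 at 4.07 ± 0.32, ASGR2, a chain of the hepatocyte receptor for desialylated glycoproteins, at 3.98 ± 0.11, PIK3C2G at 3.85 ± 0.22 and RAMP1 at 3.74 ± 0.36. Loci without a standard symbol were LOC616364 (6.82 ± 0.44), LOC338050, listed under the older name PCI (5.83 ± 0.03), LOC515150 (5.35 ± 0.12) and LOC327709, listed as GSTM1 (5.24 ± 0.01), whose relatives may bind to the same element. Lists were matched by symbol, so a gene under such a locus name could belong to a list and go uncounted. On the subcutaneous side, LOC514170, listed as the protease inhibitor CSTB, stood at -4.93 ± 0.36, LHFPL2 at -4.82 ± 0.10, the granule proteoglycan SRGN at -4.32 ± 0.15, SOX15 at -4.01 ± 0.12, the leukocyte receptors SLAMF7 and CD48 at -3.57 ± 0.20 and -3.52 ± 0.35, and ABRACL at -3.47 ± 0.10. The lysosomal membrane protein LAPTM5 of leukocytes, at -3.99 ± 0.05, is a member of the myeloid list and was counted there.

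Orientations agreed most closely, relative to the mean, in ABHD18 (1.20), COBLL1 (2.53), LOC327709, SMOC1 (1.92), TP53BP2 (1.21), PAIP2 (1.15), AHCYL1 (1.09), FMO5, IGFBP4 and WNT4 (2.36) on the liver side, each within 0.01. On the subcutaneous side they were RGS10 (-2.10), ARSB, MAGED2 (-1.57), ITGAV, ARPC5, NCKAP1L (-1.84), STMN1 (-1.52), TADA3 (-2.27), GPCPD1 (-2.15) and MAPRE1 (-1.90). At the threshold of the rule, CUTC (1.01) lay just inside and TMEM62, under 1 by less than rounding shows, just outside on the liver side, and ADD3 just inside and NFATC1 just outside on the other, both at -1.0 after rounding. Of 912 genes measured by more than 1 element, 144 were past the rule. Their elements shared a direction in 138 of the 144 and all passed 2-fold in 88. The rule was applied to the mean over elements, which favours a shared direction, so these counts do not test the names.

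The visceral depots gave each list further adipose values. These comparisons use the same 2 liver arrays, so they are set side by side without a test. One omental label is contradictory: on the array whose tissue RNA carried Cy5, channel 2 is described as Cy5 although its dye is given as Cy3. The dye entry was used, which sets the sign of that array, and as deposited the array correlated with the other omental array at -0.721. On the Cy3 arrays alone, an alternative chosen after the data were seen, the liver minus omental medians were -0.23 for the myeloid, 0.03 for the lysosome, -0.37 for the class II, -0.78 for the actin and -1.69 for the matrix list. The myeloid list had a median of -2.57 for liver minus subcutaneous, 0.19 for liver minus mesenteric and -0.27 for liver minus omental adipose tissue. The lysosome list stood at -1.33, 0.20 and 0.03 and class II antigen presentation at -1.45, 0.10 and -0.34 in the same order. The actin list stood at -1.51, -0.61 and -0.74. For these 4 lists the subcutaneous sample gave the lowest value. S100A12 had mean levels of 1.23 in mesenteric and 1.37 in omental adipose tissue against 6.63 in the subcutaneous sample and 0.49 in liver, and LIPA stood at 0.18 and 0.76 against 5.29 and 1.07. The matrix list ran the other way, at -0.95, -1.81 and -1.83, as did smooth muscle (-0.14, -1.09 and -0.78) and endothelial genes (0.14, -0.66 and -0.74). COL1A2 had mean levels of 1.28 in mesenteric and 1.86 in omental adipose tissue, above 0.87 in the subcutaneous sample and -3.02 in liver, and CAV1 stood at 1.63 and 1.52, against -0.55 and -2.86. RBP4 lay at 0.68 and 1.33 in the visceral depots and at -1.60 in the subcutaneous sample. Peroxisome (1.30, 1.43 and 1.33), complement (2.82, 2.45 and 3.02) and bile acid and xenobiotic genes (1.45, 1.48 and 1.51) had similar values against each depot. Fatty acid oxidation was positive against each depot but lower against the visceral ones (1.88, 1.51 and 1.36). On the Cy3 arrays alone its median was 1.787 for liver minus subcutaneous and 1.016 for liver minus omental. In the same order, peroxisome genes stood there at 1.114 and 1.001, complement at 2.798 and 3.112, and bile acid and xenobiotic genes at 1.45 and 1.314.

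**Figure D4:**
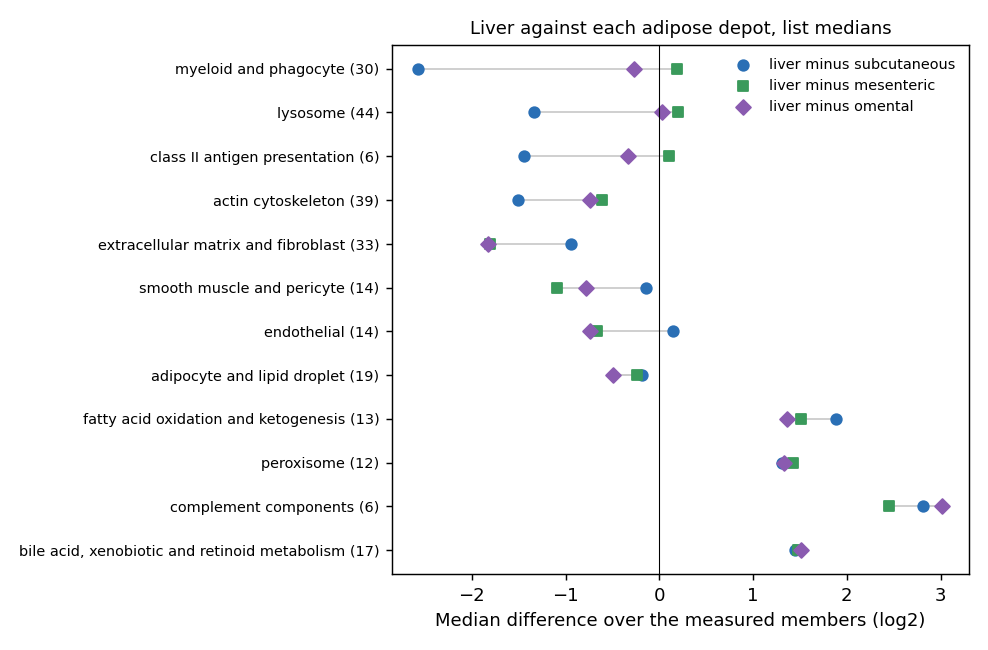
Median difference of 12 gene lists (log2) for liver minus subcutaneous, liver minus mesenteric and liver minus omental adipose tissue, which share the liver arrays; the number of genes measured is in brackets. The myeloid, lysosome and class II medians lie far below 0 against the subcutaneous sample and near 0 against both visceral samples.

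Markers of phagocytes thus moved with the subcutaneous sample as a list: 22 of 30 were higher there than in liver, and the list's median level was 2.50 in the subcutaneous sample, 0.58 in liver, 0.28 in mesenteric and 0.56 in omental adipose tissue. The adipocyte list had median levels of -0.12, -0.25, 0.27 and 0.35 in the same order. With 1 sample of each tissue, whether the phagocyte level belongs to the depot, the cow or the piece of tissue cannot be told apart, and its part in the lysosome, class II and actin lists was not tested beyond leaving out the shared members.

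Dye orientation moved the levels of the liver leaders more than those of other genes. The level with the tissue in Cy5 minus that with the tissue in Cy3 had a median of 0.03 in liver and 0.02 in subcutaneous adipose tissue over all genes, and exceeded 1 in 114 and 89 of 4347 genes. Among the 25 genes with the largest difference toward liver the median shift was 2.50 in liver, with 24 genes above 1, and 2.51 in subcutaneous adipose tissue, with 22 above 1. Among the 25 on the subcutaneous side it was 0.17 and 0.26. The shift was shared in part between the tissues, with r = 0.492 across genes. Within a single orientation only the shared part drops out of the difference. The differences given average both orientations, and the unshared part shows in the figure after ±. In RBP4 the shifts were 3.92 in liver and 3.87 in subcutaneous adipose tissue. In SERPINA3-3 they were 4.84 and 6.56, which left differences of 9.53 on the Cy3 and 7.80 on the Cy5 arrays, and in TF they were 2.48 and 3.77. Over the 25 liver leaders each orientation lay 0.01 to 0.86 from the mean difference (median 0.19). A single level of these genes depends on the array it is read from. The cause of the shift was not tested.

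**Figure D5:**
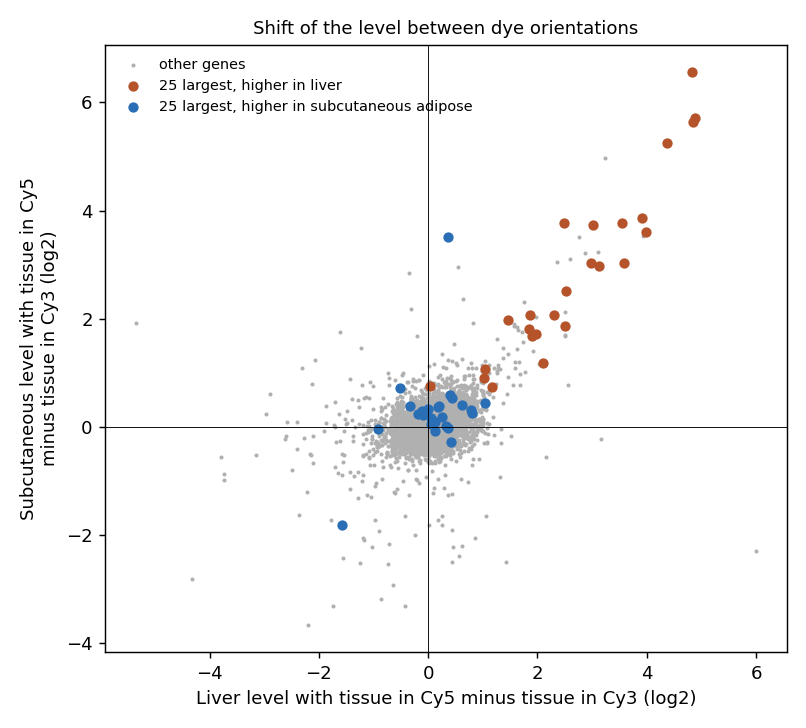
Level with the tissue in Cy5 minus level with the tissue in Cy3 (log2) in liver (horizontal) and subcutaneous adipose tissue (vertical) for 4347 genes. The 25 genes highest in liver have median shifts of 2.50 and 2.51, and the 25 highest in subcutaneous adipose tissue of 0.17 and 0.26.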

How the data were processed

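The deposited values are log2 ratios of both dye channels per spot, as taken here from a ceiling of 16.61, the log2 of 100000, since the labels name no base. Per the series' design text, aminoallyl cDNA was made from 20 ug of RNA and hybridised to duplicate slides (4 spots per element) at 42 C for 2 days, and a ScanArray 4000 and GenePix 4.0 gave the spot readings. For background correction, normalisation and genome build the authors' choices are not given in the sources used, and no coordinates are printed. Channel intensities were not analysed here, dim spots could not be filtered, and precision is limited by the number of arrays.

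The sign was turned on arrays that carried the tissue in Cy3, ceiling values were set missing, each array was centred on its median, and duplicate spots, then the elements of a gene, were averaged. The 2 arrays of liver correlated at -0.789 as deposited and those of subcutaneous adipose tissue at -0.768. Table rows ran in 48 blocks of 171 elements, annotation rows in 16 of 528. Of 6144 layouts scored on the 3 other tissues, the best gave 1283 clone pairs a mean cosine of 0.368 and the next 0.11. Of the identifiers, 10884 had 1 symbol, 186 several and 5346 none. Symbols were updated by Entrez identifier in RefSeq for 5467 of 5472 named elements, which stand for 4366 genes.

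Named are the 25 largest differences per direction, the 10 with the closest orientations per direction, and members of 39 gene lists. The members and lists were chosen with earlier results of these data known. Python 3.11.15, numpy 2.4.6, pandas 2.3.3 and matplotlib 3.10.9 were used, and the scripts were tested on simulated data.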

Additional observations from a re-analysis of the deposited data

How the results depend on the processing

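The counts of 346 genes higher in liver and 420 in subcutaneous adipose tissue became 163 and 1377 without centring, 123 and 121 at 4-fold, and 672 and 795 over all array elements, named or not. Leaving out the arrays of one dye orientation gave 395 genes higher in liver either way and 462 to 467 in subcutaneous adipose tissue. Other settings gave counts within 1.5 times: 348 and 394 after quantile normalisation, 348 and 421 with ceiling values kept, 347 and 423 with the median over elements, 292 and 330 for genes with 1 element, 289 and 333 with 2-fold in each orientation, and 329 and 397 with a mean over 3 times the distance of either orientation from it. The distance between the tissues (SD of gene differences) was 0.99, 1.03 in each orientation alone, and 0.40 as a median absolute difference. No named gene past the rule changed sign under the settings tried. Without centring 35 of them fell short of the rule, with quantile normalisation 9 (ABCD3, C1QA, COL4A2, GRB7, MCCC1, MYL6, PGAM1, TEK and TPM3), on the Cy5 arrays alone 7 (APOA1, CD3D, COL4A1, FBLN1, FERMT2, MGP and PKM) and on the Cy3 arrays alone 12 (ANPEP, C1QA, CAPZA1, COL4A2, DBI, GRB7, MCCC1, NQO1, TEK, TLN1, TPM3 and ZYX). No paired analysis was possible because each tissue is 1 RNA sample and the labels carry no replicate numbers. One sample per tissue, a reference of unknown makeup, unknown signal over background and rejoined names limit every value.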

Other observations

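Further genes on the liver side, chosen after their values were seen, belong to haem, clotting, hormone and one-carbon metabolism. ALAS1, the rate-limiting enzyme of haem synthesis, had levels of 2.79 and 3.63 in liver and -0.13 and 0.52 in subcutaneous adipose tissue, a difference of 3.02 ± 0.09. GCGR, the glucagon receptor, differed by 3.27 ± 0.46, MTHFD1, a folate enzyme, by 3.13 ± 0.04, and TST, a sulfur transferase that detoxifies cyanide, by 3.19 ± 0.25 over 2 elements. VKORC1, which recycles vitamin K for clotting factors, stood at 2.52 ± 0.02 and the vitamin K-dependent protein S gene PROS1 at 2.36 ± 0.20. RARRES2, the chemokine-like adipokine chemerin, which liver also makes, stood at 3.38 ± 0.35 on the liver side. CD5L, a protein of tissue macrophages, was higher in liver by 2.95 ± 0.20, as were the C1q chains, though its arrays overlapped (2.49 and 6.42 against -0.26 and 3.28).

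On the subcutaneous side, likewise chosen after their values were seen, stood further genes of phagocytes and lysosomes. DNASE2, the acid nuclease of lysosomes, differed by -3.34 ± 0.10 over 2 elements, PLD3 by -3.26 ± 0.25, and CST3 (cystatin C), an inhibitor of cathepsins, by -3.31 ± 0.17. FCGR1A, a high-affinity Fc receptor, stood at -2.27 ± 0.03, MS4A7 at -2.45 ± 0.37, MPEG1, a pore-forming protein of macrophages, at -2.23 ± 0.30, SIRPA at -1.99 ± 0.06 and LY96, the partner of the lipopolysaccharide receptor, at -1.98 ± 0.09. SPIC, a transcription factor of iron-recycling macrophages, stood at -2.37 ± 0.46. FGL2 (-3.33 ± 0.31) and CST3 differed from the others in the visceral depots, where FGL2 had mean levels of 5.53 (mesenteric) and 4.22 (omental) and CST3 of 3.0 and 2.43, while DNASE2 stood at -0.28 and -0.44 and PLD3 at -0.82 and -0.66.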
